A study of Homo sapiens with 20 samples.

Results

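TNFRSF17 (BCMA), TNFRSF13B (TACI) and TNFRSF13C (BAFF receptor) are the receptors of the BAFF and APRIL system, and TNFSF13 (APRIL) and TNFSF13B (BAFF) are its ligands. The rows were taken by gene name, which gave 5 of 18305 listed genes. Their NCBI gene IDs are 608 for TNFRSF17, 23495 for TNFRSF13B, 115650 for TNFRSF13C, 8741 for TNFSF13 and 10673 for TNFSF13B. RNA was sequenced in 20 libraries, 2 biological replicates in each of 10 groups. Wild-type (WT) cells came from 3 multiple myeloma lines (AMO1, L363, RPMI-8226) and from the B-lymphoblastoid line ARH-77. Bortezomib-resistant (BtzR) derivatives of all 4 lines were grown in 90 nM bortezomib, and the carfilzomib-resistant (CfzR) derivatives of AMO1 and L363 in 90 nM carfilzomib. Both drugs inhibit the proteasome. The resistant cells were evolved in culture, and each group stands for 1 labelled line, so that resistance was not replicated within a line, and resistant cells differ from WT cells also in growing with drug.

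The pathway links antibody-secreting cells to survival signals from their niche. BAFF binds all of the receptors, most strongly the BAFF receptor, and APRIL binds BCMA and TACI. The BAFF receptor is the main survival receptor of mature B cells, TACI regulates activated B cells and class switching, and BCMA supports long-lived plasma cells and is a target of antibodies and CAR T cells in myeloma. The receptors recruit TRAF adaptors and signal to NF-kappaB, gamma-secretase sheds BCMA from the cell surface, and furin releases the soluble ligands. Myeloid and stromal cells are well-known sources of both ligands in bone marrow.

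RefSeq gave an upstream sequence for 3 of the 5 genes in the GRCh38.p14 build. The 250 bases before the outermost listed transcription start are shown on the gene's strand for each gene with an entry, as the sequence context of the transcripts described below. Capitals mark the single match found among the motifs searched, an NF-kappaB element 141 bases before the TNFSF13 start.
TNFRSF13B, chr17:16972119-16972368, minus strand: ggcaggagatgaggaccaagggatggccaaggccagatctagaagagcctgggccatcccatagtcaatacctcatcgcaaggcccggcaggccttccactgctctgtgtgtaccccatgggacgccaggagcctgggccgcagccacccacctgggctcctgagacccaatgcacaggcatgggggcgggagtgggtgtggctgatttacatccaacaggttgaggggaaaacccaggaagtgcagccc
TNFSF13, chr17:7558032-7558281, plus strand: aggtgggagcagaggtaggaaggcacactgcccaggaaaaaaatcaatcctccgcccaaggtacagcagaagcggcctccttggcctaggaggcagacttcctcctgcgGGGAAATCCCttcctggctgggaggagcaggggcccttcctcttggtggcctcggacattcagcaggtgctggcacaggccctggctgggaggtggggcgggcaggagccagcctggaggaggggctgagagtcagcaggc
TNFSF13B, chr13:108269379-108269628, plus strand: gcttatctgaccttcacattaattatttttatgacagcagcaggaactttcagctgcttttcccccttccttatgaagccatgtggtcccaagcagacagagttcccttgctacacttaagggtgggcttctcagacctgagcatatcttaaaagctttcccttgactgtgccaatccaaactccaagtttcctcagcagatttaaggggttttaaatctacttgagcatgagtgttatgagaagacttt
Both strands were searched for the octamer ATGCAAAT, the ETS-IRF element (GGAA, any 2 bases, GAAA), the interferon-stimulated response element (GAAA, any 2 bases, GAAA), the TATA box TATAAA and the NF-kappaB element, and the last of these reads as a match on either strand. Among 27305 upstream windows of the same length, 9.58% held an NF-kappaB match, 1.67% an octamer, 2.42% an ETS-IRF element, 3.07% an interferon-stimulated response element and 11.2% a TATA box. The ETS-IRF and interferon-stimulated patterns can overlap. A match is a description of the letters and is no evidence of binding. GC content was 62% in the TNFRSF13B window, 64.4% in that of TNFSF13 and 42.8% in that of TNFSF13B.

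Levels are in FPKM, which counts fragments relative to transcript length and library size. Depth per library is unknown, since the table holds no counts. FPKM summed to 457317 to 494850 per library, 10455 to 11023 genes reached 1 FPKM, and log2(FPKM + 1) correlated between replicates with a Pearson r of 0.986 to 0.998 across genes. The 2 libraries labelled AMO1 CfzR stood apart from their label: their r across genes was 0.986 to 0.992 with the L363 libraries and 0.878 to 0.883 with the other AMO1 libraries. They are called the libraries labelled AMO1 CfzR below and are compared with WT cells of both lines. Plasma cell markers were present in the myeloma groups, where 7 or 8 of 8 reached 1 FPKM in both libraries. The count was 7 of 8 in both ARH-77 groups as well, so it did not set them apart. PRDM1, SDC1 and MZB1 were each lower in every ARH-77 library than in every myeloma library, and the other markers of the list were not. The summed level, which includes TNFRSF17, also differed. It was 298.52 to 347.6 FPKM in ARH-77 and 851.92 to 4175.19 FPKM in the myeloma libraries. B-cell markers separated ARH-77 from the rest, with 8 of 8 at 1 FPKM or more in both of its groups and a summed level of 669.95 to 891.75 FPKM, against 0.52 to 55.2 FPKM in the myeloma libraries. Stromal markers summed to at most 1.76 FPKM and myeloid markers to 3.34 to 9.36 FPKM.

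BCMA transcript was abundant in every myeloma group except RPMI-8226 BtzR. In FPKM, TNFRSF17 was at 96.22 and 87.03 in AMO1 WT, 164.85 and 146.76 in L363 WT, 94 and 98.13 in RPMI-8226 WT, and 18.95 and 18.39 in ARH-77 WT. It was at 78.21 and 92 in AMO1 BtzR, 100.92 and 102.59 in L363 BtzR, 153.07 and 174.03 in its CfzR counterpart, and 18.86 and 21.28 in ARH-77 BtzR. RPMI-8226 BtzR held 7.86 and 4.93, below every other library. The libraries labelled AMO1 CfzR held 122.04 and 120.13, between the AMO1 WT and L363 WT values. They lay within the range of all L363 libraries and outside that of the other AMO1 libraries. Within a library, TNFRSF17 ranked at the 95.1 percentile of listed genes in the first AMO1 BtzR library and at the 63.0 percentile in the first RPMI-8226 BtzR library.

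**Figure D1:**
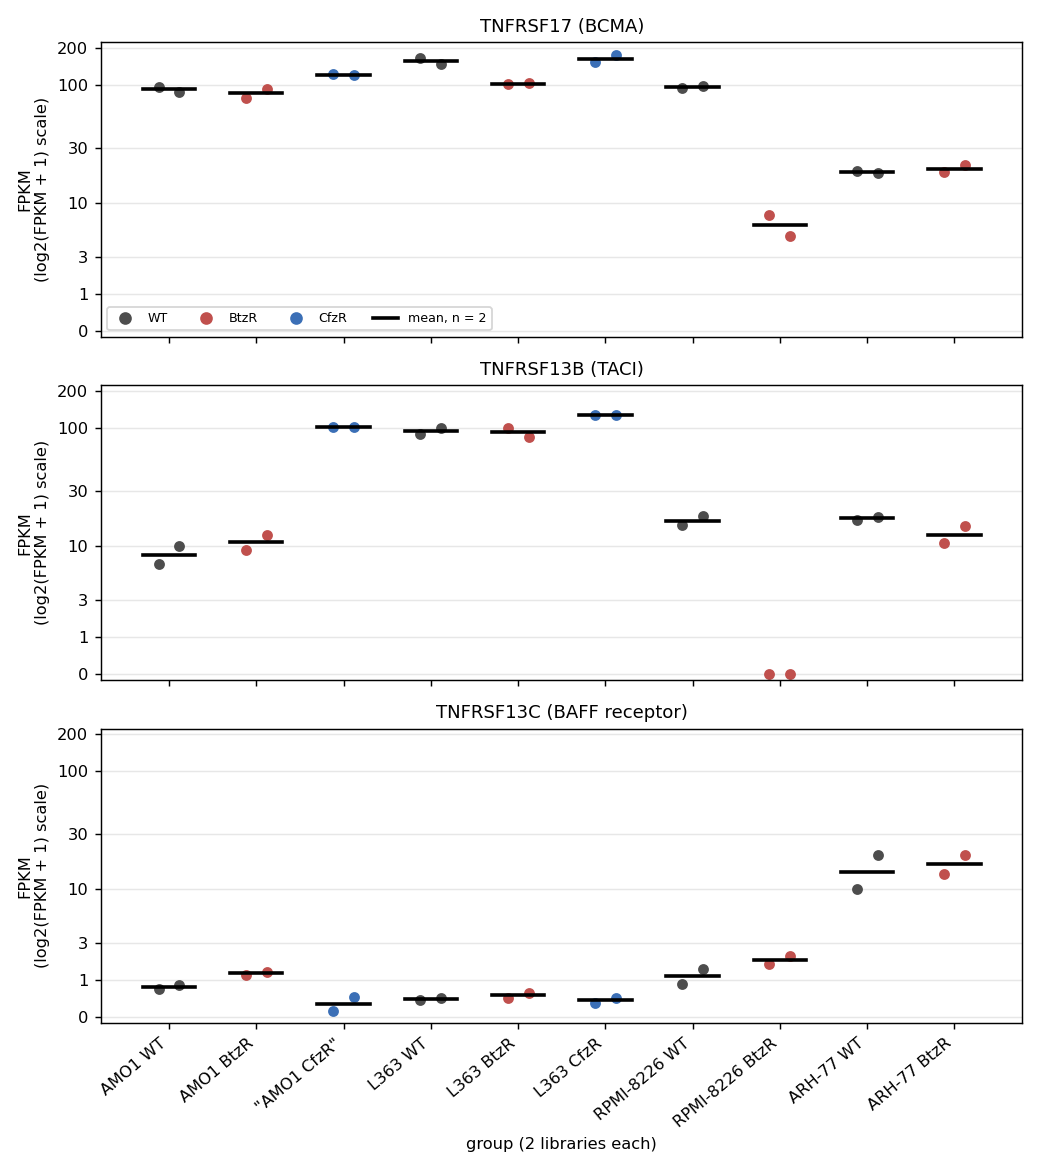
FPKM of the receptors TNFRSF17, TNFRSF13B and TNFRSF13C (y axis, log2(FPKM + 1) spacing) in each of 20 libraries by group (x axis). Points are libraries and bars are means of 2 on that scale, with no bar where both are listed at 0. TNFRSF17 is lowest in RPMI-8226 BtzR at 7.86 and 4.93 FPKM, and TNFRSF13B is at 0 there.

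TACI separated the myeloma lines from each other more than BCMA did. TNFRSF13B was at 89.27 and 99.14 FPKM in L363 WT, 100.38 and 84.55 in the BtzR and 126.5 and 128.03 in the CfzR derivative. AMO1 held far less, 6.88 and 10.07 in WT cells and 9.21 and 12.63 in BtzR cells. RPMI-8226 WT was at 15.26 and 18.48, ARH-77 WT at 16.97 and 18.02, and ARH-77 BtzR at 10.67 and 15.04. In both RPMI-8226 BtzR libraries TNFRSF13B was listed at 0. The libraries labelled AMO1 CfzR held 100.88 and 101.24, within the range of the L363 libraries and outside that of the other AMO1 libraries.

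The BAFF receptor was a feature of ARH-77. TNFRSF13C was at 10.14 and 19.74 FPKM in ARH-77 WT and at 13.53 and 20.08 in ARH-77 BtzR. Every myeloma library was at 2.18 FPKM or less. RPMI-8226 BtzR had the highest myeloma values, 1.73 and 2.18, above 0.87 and 1.48 in RPMI-8226 WT. AMO1 BtzR held 1.22 and 1.36, against 0.71 and 0.84 in AMO1 WT. The L363 groups and the libraries labelled AMO1 CfzR lay between 0.12 and 0.58.

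The make-up of receptor transcript differed by line. BCMA made up 92.7% and 88.9% of the summed FPKM of the 3 receptors in AMO1 WT and 85.4% and 83.1% in RPMI-8226 WT. In L363 WT it made up 64.8% and 59.6%, with TACI at 35.1% and 40.2%. ARH-77 WT was the most evenly divided, with BCMA at 41.1% and 32.8%, TACI at 36.8% and 32.1% and the BAFF receptor at 22.01% and 35.16%. In RPMI-8226 BtzR the sum was 9.59 and 7.11 FPKM, against 110.13 and 118.09 in RPMI-8226 WT, and the BAFF receptor made up 18.0% and 30.7% of it. The ratio of BCMA to TACI was 13.99 and 8.64 in AMO1 WT, 6.16 and 5.31 in RPMI-8226 WT, 1.85 and 1.48 in L363 WT and 1.12 and 1.02 in ARH-77 WT. The ratio in the libraries labelled AMO1 CfzR was 1.21 and 1.19.

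**Figure D2:**
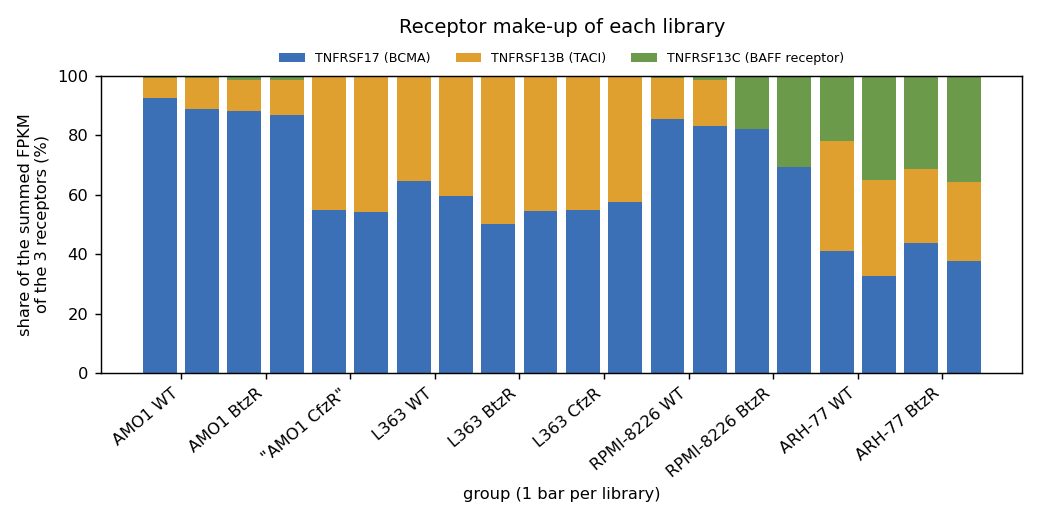
Share of the summed FPKM of the 3 receptors held by each receptor (y axis, %), with 1 bar per library grouped by line and treatment (x axis). BCMA holds most of the sum in AMO1 WT and RPMI-8226 WT, TACI is absent from both RPMI-8226 BtzR bars, and the BAFF receptor is visible mainly in ARH-77 and RPMI-8226 BtzR.

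Ligand transcript was low, and each ligand had its own line. TNFSF13 (APRIL) was at 6.89 and 6.8 FPKM in RPMI-8226 WT and 5.3 and 4.53 in RPMI-8226 BtzR. It was at 1.36 and 1.87 in ARH-77 WT and 1.22 and 1.11 in ARH-77 BtzR, and the AMO1 and L363 libraries lay between 0.12 and 0.56. TNFSF13B (BAFF) was at 2.5 and 2.02 FPKM in ARH-77 WT and 3.24 and 1.79 in ARH-77 BtzR. In the 16 myeloma libraries it did not pass 0.2 FPKM, and 2 of them listed it at 0. Levels this low rest on few fragments.

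**Figure D3:**
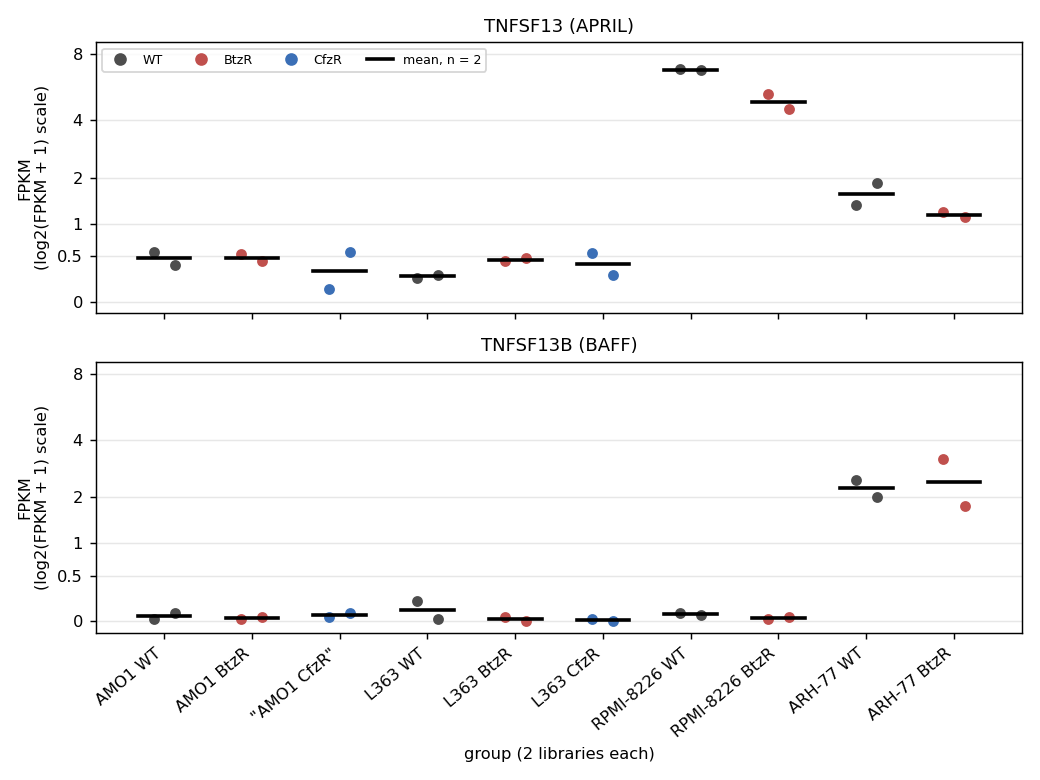
FPKM of the ligands TNFSF13 and TNFSF13B (y axis, log2(FPKM + 1) spacing) in each of 20 libraries by group (x axis). Points are libraries and bars are means of 2 on that scale. TNFSF13 is highest in RPMI-8226 WT at 6.89 and 6.8 FPKM, and TNFSF13B passes 1 FPKM only in ARH-77 libraries.

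WT cells of the lines were then compared by limma on log2(FPKM + 1), with p-values adjusted by Benjamini-Hochberg over 13089 tested genes. A gene was called at an adjusted p under 0.05 and a log2-fold change of at least 1 in either direction. All 5 genes passed the filter for testing, a mean of 1 FPKM in at least 1 group, TNFSF13B through ARH-77 alone. Because it was tested only for its level there, TNFSF13B had to differ from ARH-77. It is left out of the counts and tests of WT lines against ARH-77 WT in these paragraphs. The F test across lines and the repeats in alternative settings include it. Of the other 4 genes, 2 were called in AMO1 WT, 4 in L363 WT and 3 in RPMI-8226 WT against ARH-77 WT, where 24.3%, 25.2% and 28.4% of all tested genes were called. TNFRSF17 was higher than in ARH-77 WT by a log2-fold change of 2.23 in AMO1 (SE 0.144, limma adjusted p = 3.09e-09), 2.99 in L363 (9.06e-11) and 2.30 in RPMI-8226 (1.66e-09). TNFRSF13C was lower in all myeloma lines, by -3.10 in AMO1 (2.64e-08), -3.43 in L363 (7.55e-09) and -2.82 in RPMI-8226 (6.09e-08). On the log2(FPKM + 1) scale, changes of low genes are understated, and a gene under 1 FPKM in all compared libraries cannot be called.

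TACI and APRIL set the myeloma lines apart. TNFRSF13B was higher in L363 WT than in AMO1 WT by 3.35 (SE 0.176, limma adjusted p = 4.41e-10) and than in RPMI-8226 WT by 2.42 (1.36e-08). RPMI-8226 WT and ARH-77 WT overlapped in TNFRSF13B (-0.05, 95% interval -0.43 to 0.32). The difference between AMO1 WT and ARH-77 WT was -0.99 (1.60e-04) and that between RPMI-8226 WT and AMO1 WT was 0.93 (2.80e-04), both just under the fold threshold. The first passed it in 5 of 14 alternative settings and the second in 4 of 14. TNFSF13 was higher in RPMI-8226 WT than in AMO1 WT by 2.41 (1.14e-09) and than in ARH-77 WT by 1.59 (9.56e-08), and L363 WT was below RPMI-8226 WT by -2.65 (3.63e-10). It was lower in L363 WT than in ARH-77 WT by -1.06 (9.51e-06). That call was lost without the second ARH-77 WT library (-0.92) and after quantile normalization (-0.87). In order of TNFRSF17 level, L363 WT exceeded AMO1 WT by 0.76 (3.73e-04) and RPMI-8226 WT by 0.69 (6.49e-04), both under the fold threshold, and AMO1 WT and RPMI-8226 WT overlapped (0.07, 95% interval -0.24 to 0.38). Between the myeloma lines 2 of the 5 genes were called for L363 against RPMI-8226 and 1 each for L363 and RPMI-8226 against AMO1, where 21.9%, 16.6% and 21.9% of all tested genes were called.

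The question of the resistance comparisons is whether these genes differ between resistant and WT cells of a line. In RPMI-8226 BtzR, BCMA transcript fell and TACI was listed at 0, while the BAFF receptor was not called. The mean of TNFRSF17 was 6.40 ± 2.07 FPKM (SD, n = 2) in BtzR against 96.1 ± 2.92 FPKM (SD, n = 2) in WT cells, a log2-fold change of -3.74 (SE 0.144, 95% interval -4.05 to -3.44, limma adjusted p = 1.39e-11). TNFRSF13B was called lower (limma adjusted p = 4.22e-11), and no fold is given because both BtzR libraries list it at 0. These 2 of the 5 genes were called, both lower, where 13.8% of all tested genes were called and 7.92% were called lower. TNFSF13 differed by -0.41 (SE 0.141, limma adjusted p = 0.0233), with both BtzR libraries below both WT libraries but under the fold threshold. TNFRSF13C differed by 0.45 (95% interval -0.06 to 0.97, limma adjusted p = 0.128) and TNFSF13B by -0.05 (0.783). In bulk RNA, fewer cells with a transcript and less of it per cell cannot be told apart.

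**Figure D4:**
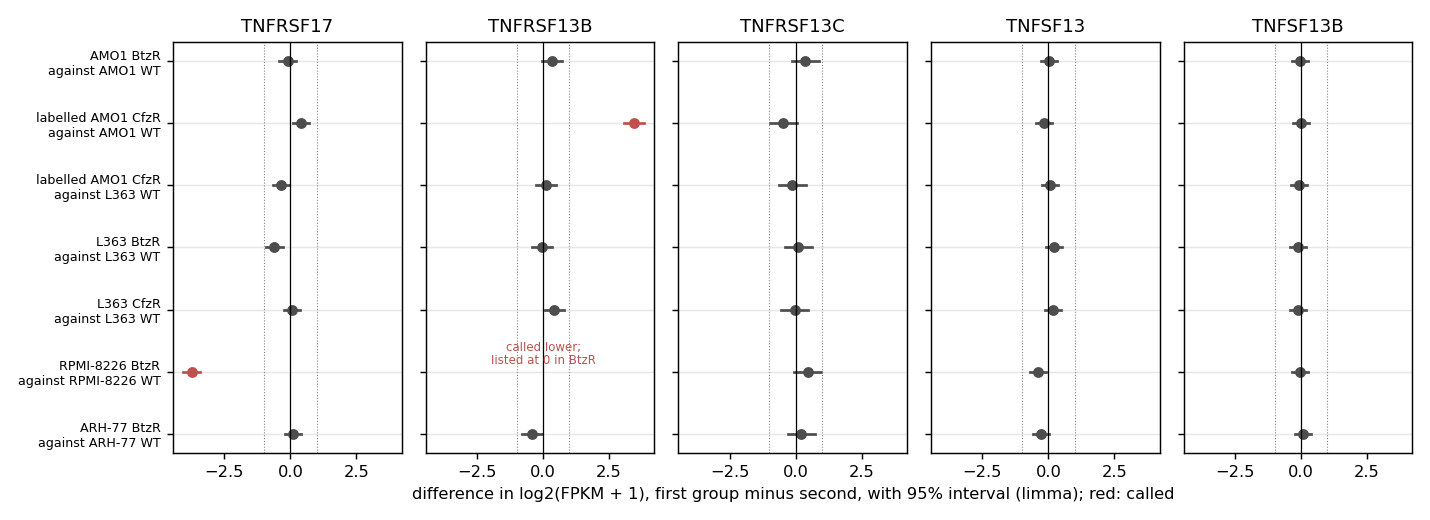
Difference in log2(FPKM + 1) of each of the 5 genes (x axis, with 95% intervals from limma) in 7 comparisons (y axis). Dotted lines mark the fold threshold of 1 and red marks called genes. TNFRSF17 in RPMI-8226 BtzR is at -3.74, TNFRSF13B in the libraries labelled AMO1 CfzR is at 3.45 against AMO1 WT and 0.10 against L363 WT, and the TNFRSF13B value in RPMI-8226 BtzR is replaced by text because it is listed at 0.

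The effect of bortezomib resistance on TNFRSF17 in RPMI-8226 was tested against that in each other line. AMO1 exceeded RPMI-8226 by 3.63 (SE 0.203, limma adjusted p = 1.90e-09) and L363 exceeded it by 3.14 (1.13e-08), while RPMI-8226 minus ARH-77 was -3.84 (1.13e-09). For TNFRSF13B the same differences had limma adjusted p-values of 1.69e-09, 4.96e-09 and 1.54e-08. At an adjusted p under 0.05, such differences were found in 54.7%, 42.8% and 46.3% of all tested genes, and the F test across the 4 lines was passed by 71.1% of them and by 3 of the 5 genes, of which TNFSF13 no longer passed in 16 of 23 alternative settings. The changes of both receptors in RPMI-8226 thus differed from those in the other lines beyond the replicate spread.

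Outside RPMI-8226 and the libraries labelled AMO1 CfzR, none of the 5 genes was called in the resistant cells. These are AMO1 BtzR, L363 BtzR, L363 CfzR and ARH-77 BtzR, where 9.18%, 2.06%, 1.93% and 1.60% of all tested genes were called. Part of this was fixed in advance. TNFSF13 and TNFSF13B were under 1 FPKM in all AMO1 and L363 libraries, as was TNFRSF13C in those of L363, so they could not be called there. In AMO1 BtzR, TNFRSF17 overlapped WT cells (-0.11, 95% interval -0.42 to 0.20), TNFRSF13B differed by 0.34 (limma adjusted p = 0.127) and TNFRSF13C by 0.37 (0.225). In ARH-77 BtzR, TNFRSF17 differed by 0.10 (95% interval -0.21 to 0.40), TNFRSF13B by -0.43 (limma adjusted p = 0.124) and TNFSF13 by -0.27 (0.252). A p over the threshold does not show equal levels, and the intervals give the sizes that remain possible.

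In L363, BCMA differed between the BtzR and CfzR groups by less than the fold threshold. TNFRSF17 was lower in both L363 BtzR libraries than in both WT libraries, by -0.61 (SE 0.144, 95% interval -0.92 to -0.30, limma adjusted p = 0.0123), which is under the fold threshold. L363 CfzR overlapped L363 WT (0.07, 95% interval -0.24 to 0.38). Compared directly, L363 CfzR exceeded L363 BtzR by 0.68 (95% interval 0.37 to 0.98, limma adjusted p = 0.00847), also under the threshold. None of the 5 genes was called in that direct comparison, where 1.47% of tested genes were. TNFRSF13B was above WT in both CfzR libraries by 0.43 (limma adjusted p = 0.183) and above BtzR by 0.46 (0.184).

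The libraries labelled AMO1 CfzR gave different results with each reference. Against AMO1 WT, TNFRSF13B was called higher by 3.45 (SE 0.176, limma adjusted p = 2.87e-10), and it was the only one of the 5 genes called, where 17.1% of all tested genes were. Against L363 WT, its difference was 0.10 (95% interval -0.27 to 0.48, limma adjusted p = 0.928) and none of the 5 was called, where 1.66% of tested genes were. TNFRSF17 was at 0.40 against AMO1 WT (limma adjusted p = 0.0271) and at -0.36 against L363 WT (0.200). Carfilzomib resistance and the identity of these cells cannot be told apart in the comparison with AMO1 WT.

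The signalling genes downstream of the receptors were mostly present in all lines. Of 21 TRAF and NF-kappaB genes tested, 3 were called higher and 2 lower in RPMI-8226 BtzR, and their median log2-fold change was 0.20, against 0.05 over all tested genes, of which 13.8% were called. TRAF1, an adaptor that NF-kappaB induces, went from 4.35 and 4.61 FPKM to 20.66 and 29.99 (2.24, SE 0.376, limma adjusted p = 1.48e-04). TRAF5, an adaptor of several TNF receptors, went from 7.53 and 7.19 to 23.17 and 28.59 FPKM (1.68, 1.18e-07). CAMLG, a binding partner of TACI, went from 12.12 and 11.05 to 21.13 and 32.09 FPKM (1.11, 6.24e-05), a call lost without the second BtzR library (0.82). RELB, a subunit of the non-canonical NF-kappaB pathway, went from 19.51 and 20.08 to 4.99 and 8.76 FPKM (-1.44, 1.82e-04). TRAF3IP3, which binds TRAF3, went from 10.57 and 8.69 to 0 and 0.05 FPKM (limma adjusted p = 1.10e-09). Both directions thus occurred within the list.

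**Figure D5:**
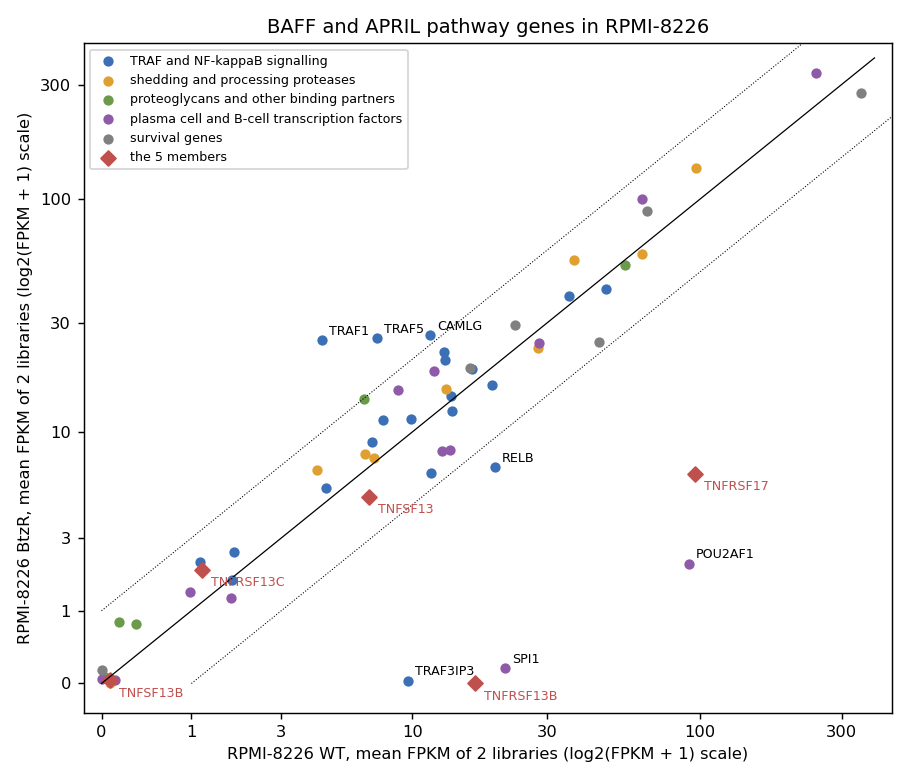
Mean FPKM of 2 RPMI-8226 BtzR libraries (y axis) against that of 2 WT libraries (x axis), both on log2(FPKM + 1) spacing, for the tested pathway genes by list and the 5 genes of the system (red diamonds). Dotted lines mark a log2 difference of 1. TNFRSF17, TNFRSF13B, POU2AF1, SPI1, TRAF3IP3 and RELB lie below the lower line, and TRAF1, TRAF5 and CAMLG above the upper one.

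In AMO1 BtzR, where the receptors were not called, 4 of the same 21 genes were called higher and 1 lower (median 0.08, against 0.00 over all tested genes, of which 9.18% were called). TRAF1 went from 1.23 and 1.72 to 9.36 and 7.89 FPKM (1.96, limma adjusted p = 5.54e-04). NFKBIA, the inhibitor that NF-kappaB itself induces, went from 20.53 and 17.3 to 78.77 and 67.98 FPKM (1.90, 2.92e-05). NFKB2, the precursor of p52, went from 54.6 and 59.38 to 148.57 and 147.23 FPKM (1.36, 8.31e-05). RELB was the other gene called higher (1.27, 6.31e-04), opposite to its direction in RPMI-8226 BtzR, and is named beyond the 3 largest after its values were seen. TRAF3IP3 was called lower (-1.75, 3.03e-06). ARH-77 BtzR had 1 higher call, NFKBIA (1.30, 0.00339), lost without the second WT library (0.68) or in a fit of these libraries alone (limma adjusted p = 0.368). L363 CfzR had 1 lower call, BIRC3 (-1.01, 0.0240), which was lost in 6 of 14 alternative settings, among them without the second WT library (-0.81) and without the first CfzR library (-0.65). L363 BtzR had none. The libraries labelled AMO1 CfzR had 4 higher and 1 lower against AMO1 WT, where 17.1% of all tested genes were called, and none against L363 WT. The largest were MAP3K14, the kinase NIK of the non-canonical pathway (2.37, limma adjusted p = 2.27e-11), NFKBIA (1.68, 6.15e-05), TRAF1 (1.41, 0.00493) and, lower, TRAF3, which restrains NIK (-1.51, 2.76e-08).

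The proteases that shed the receptors and process the ligands were at 1 FPKM or more in both libraries for 8 or 9 of 9 genes in every group. The gamma-secretase gene APH1B was at 0.09 and 0.05 FPKM in RPMI-8226 WT and at 0 and 0.01 in RPMI-8226 BtzR. None of 9 was called in the BtzR comparisons or in L363 CfzR. In RPMI-8226, NCSTN, the nicastrin subunit of gamma-secretase, was at 38.32 and 36.01 FPKM in WT and 60.28 and 50.64 in BtzR cells, and FURIN was at 4.44 and 4.11 in WT and 6.37 and 6.87 in BtzR cells, neither called. Against AMO1 WT, where 17.1% of all tested genes were called, the libraries labelled AMO1 CfzR had 1 protease called higher, the gamma-secretase gene PSEN2 (1.39, limma adjusted p = 9.46e-09). The 2 called lower were ADAM17 (-1.17, 3.61e-06) and FURIN (-1.21, 1.03e-06). Against L363 WT none was called.

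Among surface partners of the ligands, syndecan genes were called in both directions in AMO1 BtzR. SDC1, the proteoglycan CD138 that binds APRIL, went from 3265.9 and 2883.13 to 1276.12 and 1355.96 FPKM (-1.22, limma adjusted p = 3.63e-05). The related SDC4 went from 3.41 and 2.33 to 10.19 and 9.29 FPKM (1.49, 2.54e-07). SDC3, at 0.15 and 0.17 FPKM in WT and 3.14 and 2.57 in BtzR cells, and RTN4R, the Nogo receptor, at 0.68 and 0.71 in WT and 2.86 and 3.89 in BtzR cells, reached the filter only through AMO1 BtzR, so their difference is given as values with no test. T and NK cell markers moved in the same comparison, from a sum of 20.63 to 25.69 FPKM in WT to 5.94 to 6.51 in BtzR cells. CD3E and CD247 were called lower, as were CD79B and CD38, where 9.18% of all tested genes were called. NCAM1 reached the filter only through AMO1 WT and RPMI-8226 WT, so its difference is given as values with no test. It was at 5.44 and 6.02 FPKM in AMO1 WT and 0.95 and 1.02 in AMO1 BtzR. The part of these markers in these results was not tested. The CD38 call was lost without the second WT library (-0.88) or the second BtzR library (-0.99), and the CD79B call after quantile normalization (-0.999). SDC1 stayed the most abundant of these genes in AMO1 BtzR. No partner was called in L363, RPMI-8226 or ARH-77. Against AMO1 WT, where 17.1% of all tested genes were called, SDC1 was called lower in the libraries labelled AMO1 CfzR (-3.74, limma adjusted p = 8.26e-11). SDC4 reached the filter only through AMO1 WT and AMO1 BtzR, so its difference from AMO1 WT is given as values with no test. It was at 3.41 and 2.33 FPKM in AMO1 WT and 0.53 and 0.25 in the libraries labelled AMO1 CfzR. Against L363 WT no partner was called.

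Among 13 tested transcription factors of B and plasma cells, 2 were called in RPMI-8226 BtzR, both lower (median -0.10, against 0.05 over all tested genes, of which 13.8% were called), a share near that of all genes. POU2AF1, the B-cell coactivator of octamer-binding proteins, went from 88.39 and 94.55 to 1.77 and 2.5 FPKM (-4.89, SE 0.172, limma adjusted p = 5.22e-12). SPI1, the ETS factor PU.1, went from 20.34 and 22.49 to 0.24 and 0.08 FPKM (-4.27, 2.26e-14). The plasma cell factors were not called: IRF4 was at 60.68 and 66.11 FPKM in WT and 84.11 and 116.41 in BtzR cells, PRDM1 at 11.33 and 12.66 in WT and 21.38 and 15.88 in BtzR cells, and XBP1 at 246.33 and 247.79 in WT and 341.32 and 327.31 in BtzR cells. POU2AF1 had the other direction in AMO1 BtzR, from 143.95 and 137.08 to 279.21 and 321.86 FPKM (1.09, limma adjusted p = 1.08e-04), a call lost without the second BtzR library (0.99). L363 BtzR, L363 CfzR and ARH-77 BtzR had no call against WT. Against AMO1 WT, where 17.1% of all tested genes were called, the libraries labelled AMO1 CfzR had 2 higher, XBP1 (3.20, limma adjusted p = 3.26e-12) and IRF8 (2.25, 5.74e-08). The 2 lower were SPIB (-1.87, 1.56e-07) and ID3 (-1.69, 1.86e-05). Against L363 WT, where 1.66% of tested genes were called, IRF8 was called higher (1.09, 0.00110), a call lost without the second labelled AMO1 CfzR library (0.95). SPIB, another ETS factor, was called higher in L363 CfzR than in L363 BtzR (1.02, 9.54e-04), a call lost in 5 of 14 alternative settings, among them without the second BtzR library (0.94) and without the second CfzR library (0.84).

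Of the 6 survival genes, 3 were called in AMO1 BtzR, all higher (median 0.43, against 0.00 over all tested genes, of which 9.18% were called). BCL2 went from 12 and 13.39 to 33.01 and 29.9 FPKM (1.24, limma adjusted p = 2.06e-04). BCL2L11, which encodes the pro-apoptotic BIM, went from 18.76 and 20.17 to 52.12 and 44.64 FPKM (1.27, 4.68e-07). BCL2L1 was also called (1.03, 9.77e-04), a call lost without the second WT library (0.95) or the first BtzR library (0.89). MCL1, known to support plasma cells downstream of BCMA, was at 333.5 and 368.09 FPKM in AMO1 WT and 187.33 and 177.7 in AMO1 BtzR (-0.94, limma adjusted p = 1.22e-05), under the fold threshold. PIM2, a survival kinase, was at 374.58 and 543.69 in AMO1 WT and 282.64 and 272.16 in AMO1 BtzR (-0.70, 0.00401), also under it. None was called in L363, RPMI-8226 or ARH-77. MCL1 was at 63.58 and 68.8 FPKM in RPMI-8226 WT and 81.45 and 97.55 in RPMI-8226 BtzR. The libraries labelled AMO1 CfzR had 1 lower call against AMO1 WT, MCL1 (-1.20, limma adjusted p = 5.09e-07), where 17.1% of all tested genes were called. Against L363 WT they had none.

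Some cell type markers also differed between RPMI-8226 BtzR and WT cells. Of 8 B-cell markers, 3 were called lower in BtzR cells, CD79B (-1.72), BLK (-3.83) and CR2 (-2.67), where 7.92% of all tested genes were called lower, and their summed level was 0.52 to 0.96 FPKM in BtzR against 27.05 to 27.8 in WT cells. MS4A1, which encodes CD20, did not exceed 0.03 FPKM in either group. Of 8 plasma cell markers, 2 were called lower, TNFRSF17 itself and CD38 (-3.80, limma adjusted p = 9.54e-09), and the sum was 851.92 to 914.55 against 1191.39 to 1231.86 FPKM. MZB1 was at 716.88 and 654.32 in WT and 389.34 and 345.72 in BtzR cells, and SLAMF7 at 0.74 and 0.82 in WT and 0.27 and 0.41 in BtzR cells. The others did not fall: IRF4, PRDM1 and XBP1 were above WT in both BtzR libraries. SDC1 overlapped, at 56.3 and 54.85 in WT and 67.84 and 38.24 in BtzR cells. T and NK cell markers summed to 6.03 to 6.5 FPKM in BtzR against 15.84 to 17.2 in WT cells. The lower sum came from NCAM1 alone, at 11.25 and 12.44 in WT and 0.01 and 0.03 in BtzR cells. These values are given with no test, because NCAM1 reached the filter only through RPMI-8226 WT and AMO1 WT. KLRD1 was at 3.26 and 3.2 in WT and 5.33 and 4.9 in BtzR cells, and the other markers of this list did not pass 1.28 FPKM. In each group 2 of 6 were listed at 0 in both libraries. The part of these markers in the receptor result was not tested.

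Genes around the receptor loci were read in RPMI-8226 as a description, with neighbours taken by RefSeq order after the receptor values were seen. TNFRSF17 on chromosome 16 overlaps NPIPB2, a member of a repeated gene family, which was at 18.39 and 21.25 FPKM in WT and 5.31 and 5.87 in BtzR cells. Strand use in the counting is not given in the sources used here, so reads of TNFRSF17 and NPIPB2 may not be fully separated. The flanking RSL1D1 was at 102.23 and 92.68 in WT and 88.39 and 82.37 in BtzR cells, and CPPED1 at 6.1 and 6.09 in WT and 6.1 and 5.87 in BtzR cells. SNX29 was at 7.07 and 7.03 in WT and 4.28 and 3.15 in BtzR cells, and SHISA9 at 16.12 and 19.83 in WT and 27.12 and 21.12 in BtzR cells. Next to TNFRSF13B on chromosome 17, MPRIP was at 7.28 and 8.07 in WT and 14.71 and 12.81 in BtzR cells, and FLCN at 4.54 and 4.58 in WT and 4.6 and 6.08 in BtzR cells. On its other side, CCDC144A was at 1.53 and 1.49 in WT and 0.39 and 0.22 in BtzR cells, and ZNF624 was at 0.35 and 0.43 in WT and listed at 0 in both BtzR libraries. TNFSF13 overlaps the readthrough gene TNFSF12-TNFSF13, which was listed at 0 in all RPMI-8226 libraries.

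Genes with the most similar pattern were found by Pearson's r over 10 group means of log2(FPKM + 1). The points share cell lines and 2 libraries each, and the r is a description. TNFRSF17 was closest to IDUA (0.97; 0.95 over 20 libraries), GMPPA, CYP2R1, the proteasome ATPase gene PSMC3 and the ubiquitin gene UBB (0.96; 0.95), and most opposed to KLHL29 (-0.97; -0.97), UNC119B and FMR1. TNFRSF13B was closest to IAH1 (0.99; 0.98), SRP72, HTATIP2, the lymphocyte exchange factor VAV1 and GPSM3, and most opposed to MYO1E (-0.98; -0.98), ENAH and ATG2B. TNFRSF13C was closest to KCNN1 (1.00; 0.92), ATAD2B, RILPL1, CDK5R1 and SMPDL3A, and opposed to VPS37B, JCHAIN and CHST15. The highest group mean of KCNN1 was 1.39 FPKM. TNFSF13 was closest to CD109 (0.99; 0.98), C2CD2, AGO3 and NBPF4, and opposed to SNRPN, ITGA4 and XPO4. TNFSF13B was closest to RERGL, ZNF711, SLFN11, HMSD and the B-cell factor PAX5 (1.00; 0.98), and opposed to GAMT, ZNF544 and ITM2B. TNFSF13B and PAX5 reached a mean of 1 FPKM only in the ARH-77 groups, so an r near 1 between them was set by the filter. Among the 5 genes, TNFRSF17 and TNFRSF13B had an r of 0.80 and TNFRSF13C and TNFSF13B one of 0.96, the latter set by ARH-77 against all other groups.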

How the data were processed

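RNA extraction from frozen pellets, library construction and BGISEQ-500 sequencing were done by BGI. The authors deposited FPKM values to 2 decimals for 18305 genes by NCBI gene ID. The submitters' processing notes name HISAT2 2.0.4, Bowtie2 2.2.5 and RSEM 1.2.12. The genome build is not given in the sources used here, so files were not tied to coordinates, and RefSeq GRCh38.p14 supplied upstream sequences and gene order. Total counts are absent, so depth is unknown. The lowest steps between values of 200 genes gave relative steps of 1 to 1.1 per library. Larger ratios were set aside before the median was taken, so this range was bounded in advance and cannot show that depths were alike. Only replicates support the precision, and no counting interval was computed.

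Libraries were grouped by the line, drug and replicate in their labels. FPKM were transformed as log2(FPKM + 1), and limma 3.58.1 (R 4.3.3) was fitted to all 20 libraries with 10 group means, leaving 10 residual degrees of freedom, and the variance was moderated along a trend with the mean. Testing was limited to genes whose mean reached 1 FPKM in any group. A moderated F test in limma and pairwise contrasts compared the BtzR effect between 4 lines. The smallest two-sided exact permutation p of 2 against 2 libraries is 0.333, so none was used. The test was also run on simulated data, and the outcome is not reported here. Python 3.11.15, numpy 2.4.6, pandas 2.3.3 and matplotlib 3.10.9 were used for the rest.

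The members, gene lists and tests were chosen with earlier results of these data known. The text names the 5 genes, at most the 3 called genes of each pathway list with the largest change in each direction per resistance comparison, marker genes, and the 5 most alike and 3 most opposed genes by r. Some genes that these rules cover are not reported here. Alternatives were pseudocounts of 0.1 and 0.01, no filter or one of 5 FPKM, TPM-like scaling, quantile normalization, no trend, a replicate block, compared libraries only, no libraries labelled AMO1 CfzR, and each library left out.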

Additional observations from a re-analysis of the deposited data

Results flagged for a closer look

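The effect of bortezomib resistance differed between AMO1, L363, RPMI-8226 and ARH-77 for 3 of the 5 genes by limma's moderated F test. The adjusted p was 1.75e-09 for TNFRSF17, 3.14e-09 for TNFRSF13B and 0.0454 for TNFSF13, which no longer passed in 16 of 23 alternative settings, among them the replicate block (0.0524). This test was passed by 71.1% of all tested genes. For TNFRSF17, BtzR libraries of RPMI-8226 were both below WT (-3.74), and the other lines differed by -0.61 or less in size. TNFRSF13B was listed at 0 in RPMI-8226 BtzR only. For TNFSF13 the differences were -0.41 in RPMI-8226, -0.27 in ARH-77, 0.01 in AMO1 and 0.21 in L363. TNFRSF13C (0.754) and TNFSF13B (0.807) did not pass. In myeloma libraries TNFSF13B did not exceed 0.2 FPKM, so its test could read little beyond ARH-77.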

How the results depend on the processing

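A gene under 1 FPKM in all compared libraries cannot pass with a pseudocount of 1, so part of the counts below was fixed in advance. Of 409 repeats of the member values in the 6 resistance comparisons, 407 kept their side of the threshold, and 21 values that were not called had another sign. The other 2 were TNFRSF13C in the libraries labelled AMO1 CfzR against AMO1 WT, which passed at pseudocounts of 0.1 (-1.30, limma adjusted p = 0.0111) and 0.01 (-1.65, 0.0104). In the other comparisons 532 of 547 kept their side, a count that includes TNFSF13B against ARH-77 WT, where it had to differ. The rest were between WT lines: TNFRSF13B passed in 5 settings for AMO1 against ARH-77 (such as TPM-like scaling, -1.02) and in 4 for RPMI-8226 against AMO1, TNFRSF13C passed for L363 against RPMI-8226 and TNFSF13 for AMO1 against ARH-77 at both smaller pseudocounts, and TNFSF13 in L363 against ARH-77 no longer passed in 2. TNFRSF17 in RPMI-8226 BtzR ranged from -4.03 to -3.45 with 1 library left out and from -3.95 to -3.72 otherwise, with limma adjusted p from 7.45e-12 to 0.00162. For TNFRSF17 in L363 BtzR the limma adjusted p ranged from 0.0113 to 0.132. The F test of TNFSF13 was no longer passed in 16 of 23 settings, among them pseudocounts of 0.1 (0.206) and 0.01 (0.304) and no filter (0.0685). With 1 library left out its limma adjusted p was 0.0213 to 0.106, and that of TNFSF13B 0.0225 to 0.964, the lowest without the second ARH-77 BtzR library. TNFSF13B gave no value with the filter of 5 FPKM.

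Replicate numbers are shared between groups, and no source says that they pair libraries. Deviations of same-numbered libraries correlated across genes at -0.01 to 0.24. With the replicate block, the limma adjusted p of the TNFSF13 F test was 0.0524, and no other member value of the resistance comparisons or F tests changed side.

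Calls over all genes moved most with the pseudocount, from 1201 to 2024 in AMO1 BtzR, 270 to 582 in L363 BtzR and 1809 to 2845 in RPMI-8226 BtzR at 0.01, and from 253 to 546 in L363 CfzR and 210 to 473 in ARH-77 BtzR at 0.1. In the fit of the compared libraries only, ARH-77 BtzR had 0 calls. The cause was not tested. Depth limits what can be read from values under 1 FPKM.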
